A study of Mus musculus with 4 samples.

Results

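The 40 genes described here encode enzymes that build nucleotides and the 1-carbon units, serine and glycine that feed nucleotide synthesis. They were listed by name, 1 probe set per gene was taken (that with the highest mean signal over 4 arrays), and 37 of the 40 had a probe set that the platform annotation gives to them alone. Impdh2, Amt and Mat2a were not analysed here. Of the 37, 36 were above the signal floor, a signal of 100.001, on at least 1 array, out of 10679 genes in all that were, and 34 were above it on all 4. Aldh1l1 was under the floor on every array, with signals between 19.1 and 38.9.

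Expression was measured on 4 single-colour Affymetrix mouse arrays, 1 for each culture of fetal liver progenitor cells from p53-/- mice. The cultures carried H-RasV12 (an activated form of the GTPase H-Ras), myr-Akt (AKT1 tethered to the membrane by a myristoyl group) or the transcription factor c-Myc, or were non-transformed, and the deletion of p53 is common to all 4. The medium held EGF at 20 ng/ml and HGF at 50 ng/ml beside 10% fetal bovine serum. No source used here says how the oncogenes were delivered, from which promoter, or whether a culture was 1 clone. With 1 array per culture there is no spread between replicates, so no difference below has an error or a test, and the 3 comparisons share the non-transformed array.

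Purine rings are assembled stepwise on ribose phosphate, whereas the pyrimidine ring is made first and joined to ribose phosphate afterwards. The purine ring takes up glycine and 1-carbon units, and thymidylate takes up a 1-carbon unit, which folate carries from serine and glycine in the cytosol and in mitochondria. Deoxynucleotides for DNA are then made by ribonucleotide reductase and thymidylate synthesis, which are most active in S phase. Genes of these pathways are well known as targets of MYC, and those of serine synthesis and mitochondrial folate as targets of ATF4.

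Across these genes, signals were mostly higher in the transformed cultures, and more so with myr-Akt and c-Myc than with H-RasV12. At least 2-fold higher than non-transformed were 3 of the 36 genes with H-RasV12 (2.08% of all genes), 9 with myr-Akt (4.9% of all genes) and 8 with c-Myc (4.42% of all genes). At least 2-fold lower were 1 with H-RasV12 (6.27% of all genes), 0 with myr-Akt (12.7% of all genes) and 1 with c-Myc (11.3% of all genes). The median log2 difference of the 36 was 0.51 with H-RasV12, 0.67 with myr-Akt and 0.72 with c-Myc, beside 0.003, -0.015 and 0 over all genes in the same comparisons. Shmt1 and Umps were at least 2-fold higher in all 3 comparisons, and 6 genes were with both myr-Akt and c-Myc. Such overlaps were not counted over all genes. The comparisons share the non-transformed array, so these overlaps cannot be read as a trait of the members. Of the 36, 26 had a difference above 0 in each of the 3 comparisons, which is 72.2% of them, beside 29.3% of all genes. At a lower threshold of 1.5-fold, 14 genes were higher with H-RasV12 (8.87% of all genes), 23 with myr-Akt (16.3%) and 22 with c-Myc (15.3%), while 1 (13.7%), 2 (22.5%) and 2 (20.4%) were lower. The mean over all probe sets of a gene, in place of the brightest, gave 1, 2 and 5 genes at least 2-fold higher with H-RasV12, myr-Akt and c-Myc. The same was so for 154, 341 and 293 of 10683 genes in all. For 36 genes, 1 with H-RasV12 and 2 with myr-Akt are counts near those shares of all genes. With c-Myc the 5 genes included Mthfd1, at 1.01 by that mean and 0.72 by its brightest probe set. Umps, Ppat, Gart and Dut were under 2-fold by that mean. Probe sets under the floor on all 4 arrays enter it with a difference of 0. With c-Myc the probe sets of Ppat, by brightness, gave 1.37, 1.42 and 0, the last being under the floor throughout.

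**Figure D1:**
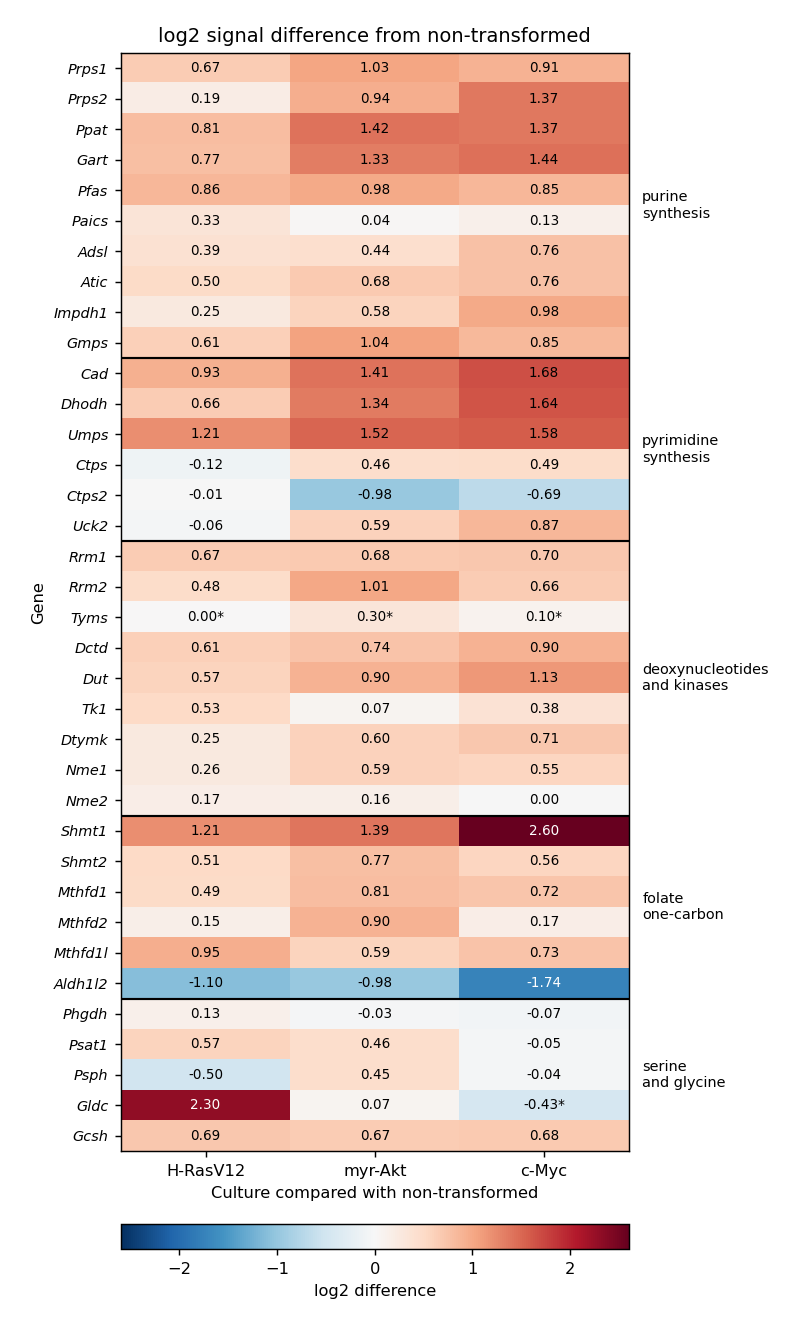
The log2 signal difference from non-transformed is shown by colour and number for the 36 genes above the floor (rows, grouped by step) in the 3 transformed cultures (columns). An asterisk marks a difference with 1 or both arrays at the floor. Most cells are above 0, while Aldh1l2 is below 0 in all 3 columns and Gldc stands out with H-RasV12 at 2.30.

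To check the label, the Myc probe set read 420.6 with c-Myc, 639.7 with myr-Akt and 1747 with H-RasV12, against 2285 in non-transformed cells. The c-Myc array was the lowest of the 4, with myr-Akt low too. Every direction given for c-Myc therefore rests on a label that this signal does not bear out. No source used here says whether that probe set detects the introduced sequence. Between 9492 and 10216 genes were above the floor per array, and the beta-actin control, read as its 5′ over its 3′ probe set, gave ratios of 0.846 to 0.907. Of 10 hepatoblast and hepatocyte markers with a probe set, 10 were above the floor with H-RasV12, 4 with myr-Akt and 4 with c-Myc, against 6 in non-transformed cells, where Afp, Alb, Ttr and Hnf4a were at the floor. Their median log2 difference was 1.36, 0 and 0, but the list was mixed. With H-RasV12, 9 were above 0, while Gpc3 was 11.5 times lower. With c-Myc, Dlk1 was 16.3 times higher, while Krt18, Apoa1 and Krt8 were at least 2-fold lower. All 5 endothelial markers were at the floor on every array, and at most 1 of 6 haematopoietic markers was above it. The summed signal of 11 stellate and mesenchymal markers was 89670 with H-RasV12, 80687 with myr-Akt and 67777 with c-Myc, against 132195 in non-transformed cells, and that of 5 mesothelial markers was 9792, 20029 and 18791 in the same cultures, against 30866. Mesothelial medians were -1.34, -0.33 and -0.37 on the log2 scale. Lrrn4 was at the floor with H-RasV12, while Krt19, also of that list, was higher there (0.705). Msln alone of the list was past 2-fold with myr-Akt (238.3) and c-Myc (348.0), against 7836.5 in non-transformed cells. The 6 biliary and progenitor markers summed to 13668, 13795 and 7574, against 7712, with Sox9 at the floor with myr-Akt and c-Myc. Cd24a made up 8502, 11635 and 4081 of these sums, against 3212. Krt7 was 3.20 times lower with H-RasV12 and 3.64 times lower with myr-Akt. The median log2 difference of the 5 measured was 0.705, -0.638 and -0.165. Stellate and mesenchymal medians were -0.43, -0.80 and -1.44, with Dcn 60.8 times lower with H-RasV12. The part of these marker lists in the results below was not tested. In RNA of a whole culture, a change in the share of a cell type and a change of expression per cell cannot be told apart.

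Promoter sequences of 37 of the 40 genes, 46 windows in all, were taken from RefSeq (mouse GRCm38.p6), from 250 bases before to 50 after a gene's start. They were searched on both strands for 3 motifs, N being any base. These were CACGTG (the E-box bound by MYC and other factors) and TGATGNAAN (a site of ATF4 with C/EBP factors). The third was TTTNNCGC, a loose form of the E2F site that also takes in other sequences, called the E2F motif below. CACGTG was in windows of 6 of the 37 genes, or 16.2%, beside 8.09% of the 27025 genes with a window. The E2F motif was in 7, or 18.9%, beside 5.93%, and the ATF4 motif in 1, Prps1, or 2.70%, beside 4.50%. Of the 11 genes with a window that were past 2-fold in any comparison, 0 held CACGTG and 3 held the E2F motif (Ppat, Prps1 and Prps2). In 8 of the 11, none of the 3 motifs was found. Of the 26 other members with a window, 6 held CACGTG, 4 held the E2F motif and 18 held none. For 11 genes, 0 with CACGTG is a count near the 8.09% of all genes. A match is a description of letters only, and no match says only that these letters are not in the window.

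The first pair of sequences is that of Ppat and Paics, which encode enzymes of the same pathway and differed in signal as described below. They are annotated on opposite strands of chromosome 5 with starts 276 bases apart. The plus-strand Paics start (76951302) lies before the minus-strand Ppat start (76951578), so the transcripts run towards each other from these starts. The windows are 177 bases apart. Motif letters are in capitals (the E2F motif, on the reverse strand, in Ppat and CACGTG in Paics). The Ppat window is chr5:76951529-76951828 on the minus strand, and the Paics window is chr5:76951052-76951351 on the plus strand.
Ppat: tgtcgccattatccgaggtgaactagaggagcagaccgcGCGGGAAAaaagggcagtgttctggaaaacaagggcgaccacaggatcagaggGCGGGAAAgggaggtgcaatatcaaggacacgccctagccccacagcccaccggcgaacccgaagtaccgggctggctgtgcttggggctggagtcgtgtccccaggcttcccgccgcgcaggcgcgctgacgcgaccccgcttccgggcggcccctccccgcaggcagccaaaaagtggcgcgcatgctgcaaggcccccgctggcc
Paics: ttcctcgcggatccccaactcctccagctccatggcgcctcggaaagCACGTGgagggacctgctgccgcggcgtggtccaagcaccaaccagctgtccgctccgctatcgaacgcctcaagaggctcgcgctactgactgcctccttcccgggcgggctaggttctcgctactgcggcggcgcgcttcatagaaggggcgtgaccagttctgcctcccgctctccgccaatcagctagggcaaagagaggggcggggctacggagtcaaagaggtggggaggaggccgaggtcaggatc

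The second set shows CACGTG in capitals with 12 bases on either side, for the other 4 measured genes that hold it. The windows are chr1:71557137-71557166, plus strand, for Atic, chr1:93802065-93802094, minus strand, for Dtymk, chr5:30073669-30073698, minus strand, for Tyms, and chr11:93968273-93968302, minus strand, for Nme1. The motif begins 7 bases before the start in Atic, 148 in Dtymk, 61 in Tyms and 18 in Nme1, which has a further window with CACGTG at a second start.
Atic: ggacctcggggtCACGTGgggtcgacacgc
Dtymk: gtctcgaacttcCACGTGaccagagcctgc
Tyms: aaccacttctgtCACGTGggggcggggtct
Nme1: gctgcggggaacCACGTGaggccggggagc

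All 10 measured genes of purine synthesis had a difference above 0 in every comparison by their brightest probe set, the smallest being 0.04 for Paics with myr-Akt. The median log2 difference was 0.56 with H-RasV12, 0.96 with myr-Akt and 0.88 with c-Myc, and 0, 4 and 3 genes were at least 2-fold higher. Of all genes, 2.08%, 4.9% and 4.42% were that much higher. The pathway begins with the PRPP synthetases, which activate ribose phosphate. Prps1 had signals of 3183 with H-RasV12, 4091 with myr-Akt and 3766 with c-Myc, against 2005 in non-transformed cells, and was 2.04 times higher with myr-Akt. Its paralog Prps2 had 1141 with H-RasV12, 1916 with myr-Akt and 2591 with c-Myc, against 1000.2 in non-transformed cells. Prps2 was therefore near its non-transformed level with H-RasV12 (1.14 times) and 2.59 times higher with c-Myc, a span of 2.27-fold among the transformed cultures.

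Ppat, which commits PRPP to purine synthesis, had signals of 1067 with H-RasV12, 1631 with myr-Akt and 1582 with c-Myc, against 610.3 in non-transformed cells. Gart, a trifunctional enzyme of 3 later steps, had 2468 with H-RasV12, 3634 with myr-Akt and 3916 with c-Myc, against 1445 in non-transformed cells. Both were past 2-fold with myr-Akt (2.67 times for Ppat, 2.52 for Gart) and c-Myc (2.59 for Ppat, 2.71 for Gart), and below it with H-RasV12. The next brightest probe sets gave 1.46 and 1.42 on the log2 scale for Ppat, and 1.29 and 1.47 for Gart, with myr-Akt and c-Myc. The third brightest of Gart gave -0.06 with H-RasV12, 0.45 with myr-Akt and 0.94 with c-Myc, under 2-fold in each. Pfas, the enzyme between the steps of Gart, had log2 differences of 0.86 with H-RasV12, 0.98 with myr-Akt and 0.85 with c-Myc.

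Paics, whose enzyme carries out the next 2 steps, was under 1.5-fold in each comparison. It had 11631 with H-RasV12, 9470.0 with myr-Akt and 10071 with c-Myc, against 9231 in non-transformed cells, so that log2 differences were 0.33, 0.04 and 0.13. Its next brightest probe set gave 0.34, 0.26 and 0.32. Ppat, whose window lies 177 bases from that of Paics, was at 0.81, 1.42 and 1.37 in the same comparisons.

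Atic, which closes the purine ring to give IMP, had signals of 6280.4 with H-RasV12, 7130 with myr-Akt and 7514 with c-Myc, against 4436 in non-transformed cells. Adsl, which acts in both the ring and the AMP branch, was at 0.39, 0.44 and 0.76 on the log2 scale with H-RasV12, myr-Akt and c-Myc. In the GMP branch, Impdh1 was at 0.25, 0.58 and 0.98 in the same order. Gmps, which makes GMP, had signals of 5460.0 with H-RasV12, 7369 with myr-Akt and 6433 with c-Myc, against 3572 in non-transformed cells. It was 2.06 times higher with myr-Akt by the brightest probe set, whereas the next brightest gave log2 differences of 0.33, 0.20 and -0.13. Quantile normalization put Gmps and Prps1 under 2-fold with myr-Akt.

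**Figure D2:**
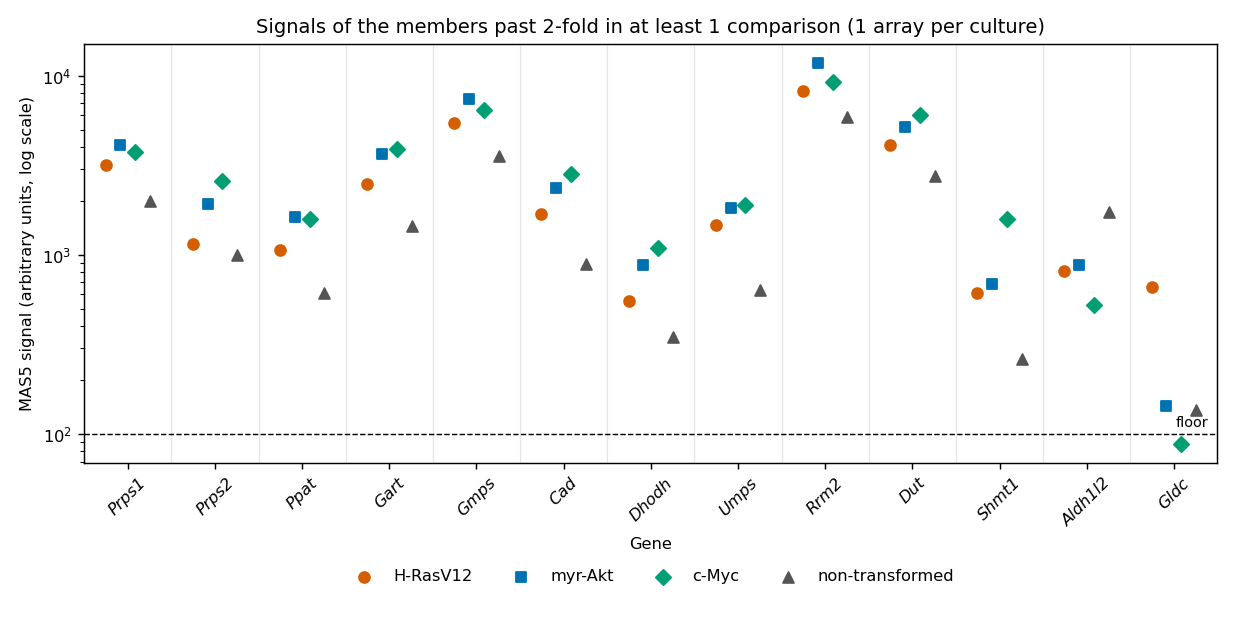
MAS5 signal (log axis, arbitrary units) is plotted for the 13 genes past 2-fold in at least 1 comparison, with 1 point per array for H-RasV12, myr-Akt, c-Myc and non-transformed. The non-transformed point is the lowest of the 4 for each gene but Aldh1l2, where it is the highest, and Gldc, where the c-Myc point is lower and under the floor (dashed line).

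The 6 pyrimidine genes had median log2 differences of 0.33 with H-RasV12, 0.97 with myr-Akt and 1.22 with c-Myc. Of them, 1, 3 and 3 were at least 2-fold higher (2.08%, 4.9% and 4.42% of all genes). The enzymes that build the ring were among the highest of the 36, with Cad, Dhodh and Umps each past 2-fold with myr-Akt and c-Myc. CAD is a single protein with the first 3 activities of the pathway. Its gene had signals of 1681 with H-RasV12, 2353 with myr-Akt and 2835 with c-Myc, against 884.8 in non-transformed cells, and was 1.90, 2.66 and 3.20 times higher. Its next brightest probe set gave log2 differences of 0.81, 1.32 and 1.65, beside 0.93, 1.41 and 1.68 by the brightest.

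Dhodh, the mitochondrial enzyme of the fourth step, had signals of 550.1 with H-RasV12, 882 with myr-Akt and 1086 with c-Myc, against 347.6 in non-transformed cells. It was 2.54 times higher with myr-Akt and 3.12 times with c-Myc, and its next brightest probe set gave smaller log2 differences, 0.65 and 0.89. Umps, which ends the pathway at UMP, had 1474 with H-RasV12, 1832 with myr-Akt and 1904 with c-Myc, against 638.5 in non-transformed cells. All 3 transformed cultures thus had more than 2-fold the non-transformed signal of Umps (2.31, 2.87 and 2.98 times). By its next brightest probe set the log2 differences were 0.68, 0.70 and 0.97, under 2-fold in each.

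The other pyrimidine genes were under 2-fold in each comparison. Ctps, which makes CTP, had signals of 3292 with H-RasV12, 4906 with myr-Akt and 5007 with c-Myc, against 3574 in non-transformed cells. The paralog Ctps2 was lower with myr-Akt and c-Myc, with signals of 1194 with H-RasV12, 608.7 with myr-Akt and 746.7 with c-Myc, against 1203 in non-transformed cells. Its log2 difference of -0.98 with myr-Akt lies just short of 2-fold. Uck2, a kinase that salvages uridine and cytidine, had 2288 with H-RasV12, 3600 with myr-Akt and 4344 with c-Myc, against 2384 in non-transformed cells. Between c-Myc and myr-Akt, all 6 pyrimidine genes were higher with c-Myc, by log2 differences of 0.03 to 0.30. The median over all genes in that comparison was 0, and the share of all genes higher with c-Myc was not counted.

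The 9 genes of deoxynucleotide supply and nucleotide kinases had median log2 differences of 0.48 with H-RasV12, 0.61 with myr-Akt and 0.66 with c-Myc. In number, 0, 1 and 1 were at least 2-fold higher (2.08%, 4.9% and 4.42% of all genes), and none was lower (6.27%, 12.7% and 11.3%). For 9 genes these counts are near those shares. Rrm1, the large subunit of ribonucleotide reductase, had signals of 8050.3 with H-RasV12, 8136 with myr-Akt and 8261 with c-Myc, against 5071 in non-transformed cells, so the 3 transformed cultures lay within 1.03-fold of each other. Rrm2, the small subunit made in S phase, had 8179 with H-RasV12, 11762 with myr-Akt and 9216 with c-Myc, against 5848 in non-transformed cells. It was 2.01 times higher with myr-Akt, under 2-fold by quantile normalization (0.93 on the log2 scale), and its next brightest probe set gave 0.64, 1.30 and 0.86.

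Dut, which removes dUTP and gives the dUMP used for thymidylate, had signals of 4108 with H-RasV12, 5135 with myr-Akt and 6026 with c-Myc, against 2758 in non-transformed cells, and was 2.19 times higher with c-Myc. Dctd, which makes dUMP from dCMP, was at 0.61, 0.74 and 0.90 on the log2 scale with H-RasV12, myr-Akt and c-Myc, and Dtymk, the thymidylate kinase, at 0.25, 0.61 and 0.71. Tk1, which salvages thymidine, had its highest signal with H-RasV12, at 2647, beside 1931 with myr-Akt and 2393 with c-Myc, against 1838 in non-transformed cells. Tyms, which makes thymidylate, was near the floor by its brightest single-gene probe set, with 93.4, 123.5 and 107.2 with H-RasV12, myr-Akt and c-Myc, against 84.6 in non-transformed cells, and cannot be ordered. Nme1 and Nme2, nucleoside diphosphate kinases of very similar sequence whose probe sets may share transcripts, were at 0.26, 0.59 and 0.55 and at 0.17, 0.16 and -0.004.

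Markers of cycling cells were higher on the same arrays. The summed signal of 17 cycling genes was 82634 with H-RasV12, 99632 with myr-Akt and 96967 with c-Myc, against 60438 in non-transformed cells, and their median log2 difference was 0.42, 0.79 and 0.75. Those at least 2-fold higher numbered 0 with H-RasV12, 5 with myr-Akt and 5 with c-Myc (2.08%, 4.9% and 4.42% of all genes). Among them were Cdc6 (1.47 with myr-Akt) and Mcm5 (1.14 with c-Myc), both of replication licensing. Their part in the differences of Rrm2, Dut and the other genes of DNA precursor supply was not tested.

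**Figure D3:**
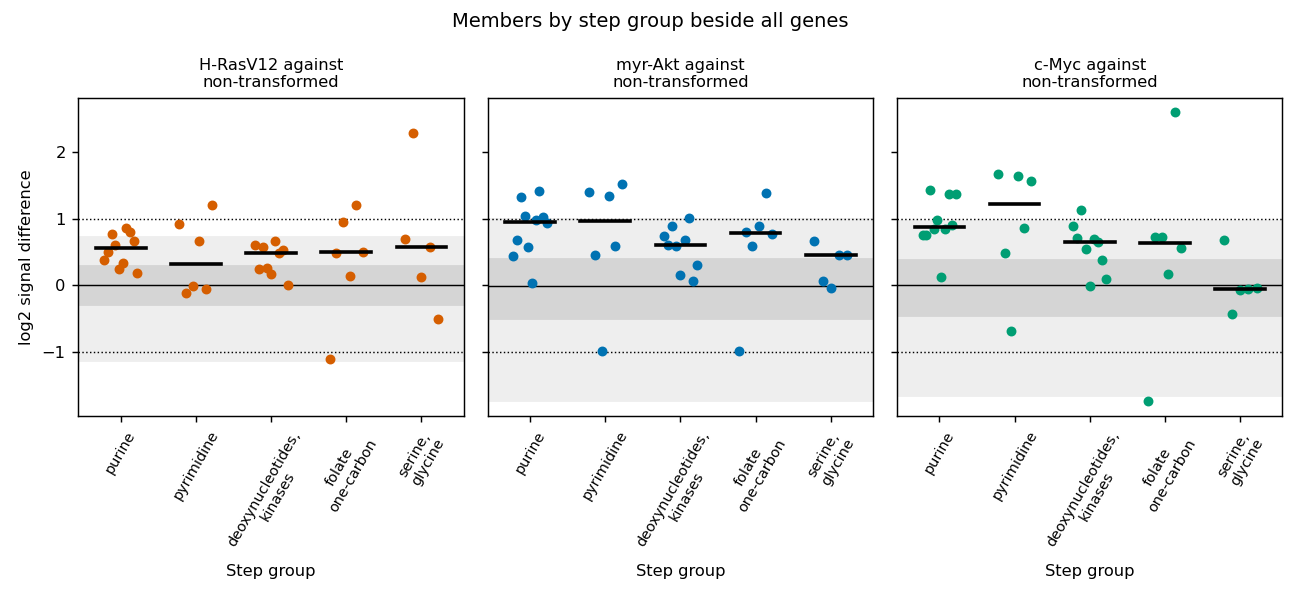
Each point is the log2 signal difference of 1 gene from non-transformed, by step group, with a panel for each transformed culture. Black bars are group medians, dark and light grey bands span the middle 50% and 90% of all genes, and dotted lines mark 2-fold. Purine medians lie above the dark band in all 3 panels, and the serine and glycine median is near 0 with c-Myc.

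In folate metabolism the cytosolic serine hydroxymethyltransferase gene Shmt1 had the highest difference of all members with c-Myc, and Aldh1l2 the lowest. The 6 measured genes had medians of 0.50 with H-RasV12, 0.79 with myr-Akt and 0.64 with c-Myc. Shmt1 was the 1 gene at least 2-fold higher in each (2.08%, 4.9% and 4.42% of all genes). SHMT enzymes move a carbon from serine to folate and release glycine. Shmt1 had signals of 608.3 with H-RasV12, 688.8 with myr-Akt and 1593 with c-Myc, against 262.6 in non-transformed cells. The c-Myc array stood apart, at 6.07 times the non-transformed signal and 2.62 times that of H-RasV12, while H-RasV12 and myr-Akt were 2.32 and 2.62 times higher than non-transformed. The next brightest probe set gave log2 differences of 0.69, 0.14 and 1.75 and the third brightest 1.25, 0.95 and 1.73, so that past 2-fold with c-Myc holds in these and with myr-Akt only in the brightest.

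The mitochondrial folate arm differed from Shmt1 and within itself. Shmt2, the mitochondrial counterpart, had signals of 3923 with H-RasV12, 4711 with myr-Akt and 4057 with c-Myc, against 2755 in non-transformed cells. Mthfd2, the dehydrogenase and cyclohydrolase of the same arm, had 3705 with H-RasV12, 6229.8 with myr-Akt and 3753 with c-Myc, against 3344 in non-transformed cells. Only the myr-Akt array stood above the others for Mthfd2, at 1.86 times, and its next brightest probe set gave 0.03, 0.86 and 0.11 on the log2 scale with H-RasV12, myr-Akt and c-Myc. Mthfd1l, which releases formate for use in the cytosol, was at 0.95, 0.59 and 0.73, and Mthfd1, the trifunctional cytosolic enzyme, at 0.49, 0.81 and 0.72.

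Aldh1l2, the mitochondrial enzyme that oxidises formyl-folate to carbon dioxide, was the only member at least 2-fold lower in any comparison. It had signals of 811.2 with H-RasV12, 881.7 with myr-Akt and 521.7 with c-Myc, against 1742 in non-transformed cells. The non-transformed array was the highest and c-Myc the lowest, with log2 differences of -1.10, -0.98 and -1.74. Its value with myr-Akt lies just short of 2-fold, and 1 probe set measured it.

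Serine and glycine genes showed no common direction. With c-Myc, 4 of the 5 measured were below 0, though Phgdh, Psat1 and Psph were near it (-0.075, -0.047 and -0.044) and Gldc was a bound. The median was -0.05 with c-Myc, 0.57 with H-RasV12 and 0.45 with myr-Akt. Phgdh, the first enzyme of serine synthesis, had signals of 12749 with H-RasV12, 11389 with myr-Akt and 11049 with c-Myc, against 11638 in non-transformed cells. Further probe sets on the array are annotated to Phgdh together with a predicted gene, so its signal is uncertain where copies share sequence. Psat1, the second enzyme, had 7028 with H-RasV12, 6491 with myr-Akt and 4569 with c-Myc, against 4721 in non-transformed cells. Psph, which ends the pathway, had 2422 with H-RasV12, 4681 with myr-Akt and 3319 with c-Myc, against 3421 in non-transformed cells, so it was lowest with H-RasV12, where Psat1 was highest.

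Gldc, the decarboxylase of the glycine cleavage system, which turns glycine into a 1-carbon unit in mitochondria, was set apart by H-RasV12. It had signals of 664.4 with H-RasV12, 142.2 with myr-Akt and 88.1 with c-Myc, against 135.1 in non-transformed cells. The H-RasV12 signal was 4.92 times the non-transformed one, while the other 3 arrays were near or under the floor. Its partner in the complex Gcsh, the hydrogen carrier protein, had 7854 with H-RasV12, 7707 with myr-Akt and 7793 with c-Myc, against 4857 in non-transformed cells, and the transformed cultures lay within 1.02-fold of each other. Both genes were measured by 1 probe set.

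The transformed cultures were also set directly against each other. Median log2 differences of the 36 were -0.31 for H-RasV12 against myr-Akt, -0.24 for H-RasV12 against c-Myc and 0.03 for c-Myc against myr-Akt, beside 0 over all genes in each. Of the 36, 1 was at least 2-fold higher with H-RasV12 than with myr-Akt (Gldc; 9.35% of all genes) and 0 lower (4.38%). With H-RasV12 against c-Myc, 1 was higher (Gldc; 8.76% of all genes) and 2 lower (Shmt1 and Prps2; 5.11%). With c-Myc against myr-Akt, 1 was higher (Shmt1; 2.01% of all genes) and 0 lower (1.53%). By order of signal, 27 of the 36 were higher with myr-Akt than with H-RasV12, 25 higher with c-Myc than with H-RasV12, and 20 higher with c-Myc than with myr-Akt. These orders were not counted over all genes, so the counts have no background beside them.

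Where a second probe set was above the floor on all 4 arrays, as for 20 of the 36 genes, it served as a repeat reading of the same RNA. The median gap between the brightest and next brightest was 0.17 on the log2 scale with H-RasV12, 0.15 with myr-Akt and 0.11 with c-Myc. Of the genes past 2-fold with such a second probe set, 2 with H-RasV12, 8 with myr-Akt and 7 with c-Myc, every one kept its direction by that probe set, and 0, 4 and 5 were past 2-fold by it too. The largest gaps were 0.53 for Umps with H-RasV12, 1.25 for Shmt1 with myr-Akt and 0.98 for Gmps with c-Myc.

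**Figure D4:**
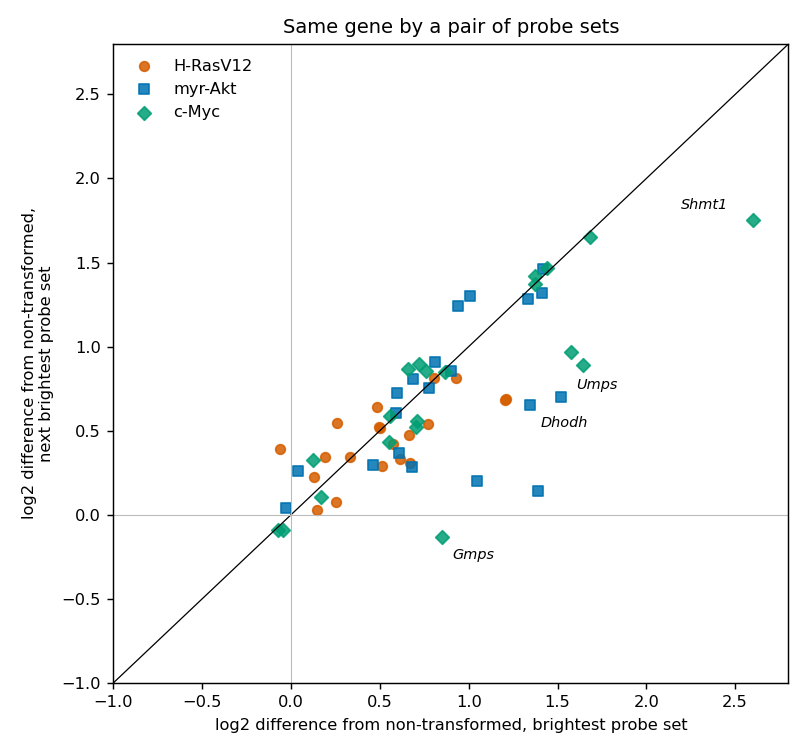
For the 20 genes with a second probe set above the floor on all 4 arrays, the log2 difference from non-transformed by the brightest probe set (x axis) is plotted against that by the next brightest (y axis), 1 point per gene and culture. Points near the diagonal agree. Dhodh and Umps (myr-Akt points named) and Shmt1 and Gmps (c-Myc points named) lie below it.

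Other genes of the pathways were taken from lists made with earlier results of these data known, and every measured gene of a list was counted. Their counts are to be read beside the shares of all genes at least 2-fold higher (2.08%, 4.9% and 4.42% with H-RasV12, myr-Akt and c-Myc) and lower (6.27%, 12.7% and 11.3%). Of 10 measured genes of nucleotide salvage, 0 were at least 2-fold higher in any comparison, and medians were 0.03 with H-RasV12, -0.42 with myr-Akt and 0.03 with c-Myc. At least 2-fold lower were Tk2, the mitochondrial thymidine kinase, with myr-Akt (at least 2.12 times, at the floor there) and Uckl1, a uridine kinase homolog, with c-Myc (-1.03). Of 11 genes that convert nucleotides, 0 were higher, while Ak1, a cytosolic adenylate kinase, was at -2.51 with myr-Akt and at least 13.7 times lower with c-Myc, with signals of 241.7 and 83.7, against 1372 in non-transformed cells. Ampd3, an AMP deaminase, was at least 2.25 times lower with c-Myc, where it was at the floor.

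Among 10 genes of folate uptake and handling, Slc19a1, the reduced folate carrier, had signals of 651.1 with H-RasV12, 1539 with myr-Akt and 1991 with c-Myc, against 419.5 in non-transformed cells. It was the only one of the list at least 2-fold higher, by 3.67 times with myr-Akt and 4.75 times with c-Myc. Folr1, a folate receptor, had 164.7 with H-RasV12, 559.8 with myr-Akt and 2160 with c-Myc, against 2190.0 in non-transformed cells, so it was lower with H-RasV12 and myr-Akt. Of 10 genes of serine, glycine and methionine handling, 0 were higher with H-RasV12, 3 with myr-Akt and 2 with c-Myc. Slc1a5, a carrier of glutamine and other neutral amino acids, was at 1.71 with myr-Akt and 1.31 with c-Myc. Slc1a4, a carrier of alanine, serine and cysteine, was at 1.07 with myr-Akt and Cth, which makes cysteine, at 1.04 there, while Ahcy, which clears S-adenosylhomocysteine, was at 1.10 with c-Myc. Lower by at least 2-fold were Sardh, sarcosine dehydrogenase, with myr-Akt (-1.36) and Srr, serine racemase, with c-Myc (-1.39).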

How the data were processed

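RNA of 4 cultures was measured on 1 Affymetrix array each. The authors deposited linear MAS5 intensities, per the submitters' processing notes. No source used here gives the software version, detection calls or filters. A 2% trimmed mean of 500.003 on all 4 arrays shows scaling before deposit.

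Here the trimmed means were made equal, signals were raised to a floor of 20% of that mean (100.001) where they lay under it, and values were put on the log2 scale. Control probe sets (64 of 45101) were left out. Of 34958 single-gene probe sets, the brightest on average represented each of 18193 genes, and 10679 above the floor on at least 1 array were used. A gene was counted at a log2 difference of 1 (2-fold). A gene at the floor on 1 side has only a bound. No test was possible. The members and lists were chosen with earlier results of these data known. Signals were printed for members past 2-fold or spanning 2-fold among transformed arrays, and for up to 2 further bright members per step group. Those of Ctps2, Tk1, Tyms, Rrm1, Shmt2, Psat1 and Psph were added after their values were seen. Counting was tested on simulated data. Other floors, a pseudocount, scalings, probe-set rules and a 1.5-fold threshold were tried. Python 3.11.15, pandas 2.3.3, numpy 2.4.6 and scipy 1.17.1 were used. The number of arrays limits the precision.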

Additional observations from a re-analysis of the deposited data

Results flagged for a closer look

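Gldc differed in direction between cultures. Its log2 difference from non-transformed was 2.30 with H-RasV12, whereas with c-Myc it was -0.43, a bound, since the c-Myc signal of 88.1 was under the floor. The values lie at least 2.73 apart on the log2 scale. The non-transformed signal of 135.1 was itself near the floor, and with the floor at 40% of the trimmed mean both it and c-Myc were at the floor, so the opposite sign with c-Myc was then no longer seen. This difference was not tested, because each culture has 1 array.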

How the results depend on the processing

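With the mean over all probe sets of a gene, the number of genes at least 2-fold higher was 1 with H-RasV12, 2 with myr-Akt and 5 with c-Myc, in place of 3, 9 and 8. With a threshold of 1.5-fold it was 14, 23 and 22, beside 8.87%, 16.3% and 15.3% of all genes, and the number lower was 2 with myr-Akt and 2 with c-Myc. The counts and medians under the other alternatives (floors at 10% and 40% of the trimmed mean, a pseudocount of 50, quantile normalization, median centring, and no _s_at or _x_at probe sets) stayed within 1.5 times those reported. Over all 10683 genes, the mean over probe sets gave 154 higher with H-RasV12, 341 with myr-Akt and 293 with c-Myc. These stood in place of 222, 523 and 472 of 10679. The number lower over all genes was 436, 968 and 858 in the same order, in place of 670, 1353 and 1211. Of 750 gene-level values recomputed, 729 kept their side of 2-fold, 18 dropped under it (13 of them with the mean over probe sets) and 3 passed it, while none past 2-fold changed sign. Gldc and Aldh1l2 with H-RasV12, and Cad, Prps2, Shmt1 and Aldh1l2 with c-Myc, were past 2-fold under all 7 alternatives that keep the 2-fold threshold. Without _s_at and _x_at probe sets, Dhodh was at 0.65 with myr-Akt and 0.89 with c-Myc. No paired analysis was possible because each group holds 1 array. Signals near the floor, as for Tyms and Gldc, and differences close to 2-fold, as for Rrm2, limit what can be read from these arrays.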

Other observations

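The pentose phosphate pathway makes the ribose phosphate from which PRPP is formed. Of its 7 measured genes, Rpia, ribose-5-phosphate isomerase, had signals of 755.2 with H-RasV12, 3714 with myr-Akt and 3198 with c-Myc, against 822.8 in non-transformed cells. It was 4.51 times higher with myr-Akt and 3.89 times higher with c-Myc, and not with H-RasV12. Pgd, of the oxidative branch, was at 1.30 on the log2 scale with myr-Akt, and the other genes of the list were under 2-fold in each comparison.

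Of 8 genes of nucleotide breakdown, 0 were at least 2-fold higher in any comparison, a count near the background of 2.08% to 4.9% of all genes. Xdh, which makes uric acid, had signals of 222.6 with H-RasV12, 675.3 with myr-Akt and 624.2 with c-Myc, against 632.6 in non-transformed cells, so the H-RasV12 array alone was low. Nt5e, the surface nucleotidase CD73, was at the floor in all 3 transformed cultures and at 204.9 in non-transformed cells. Among listed regulators, Atf4 had signals of 10537 with H-RasV12, 13618 with myr-Akt and 9665 with c-Myc, against 10019.9 in non-transformed cells. Mycn was bright on all 4 arrays, at 23651 with H-RasV12, 26244 with myr-Akt and 23750 with c-Myc, against 25881 in non-transformed cells.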
